A study of Mus musculus with 2 samples.

Results

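The liver X receptor (LXR) pathway was read in RAW264.7 cells through 9 genes chosen by name: the receptors *Nr1h2* and *Nr1h3*, the efflux transporters *Abca1* and *Abcg1*, the apolipoprotein genes *Apoe* and *Apoc2*, and *Pltp*, *Mylip* and *Lpcat3*. All probes whose RefSeq accession belongs to one of these symbols were taken. This gave 10 probes for 8 of the 9 genes, out of 27224 named probes for 20655 genes. No probe was matched to *Apoc2*, so this gene has no value. The 8 genes were all well above background on both arrays.

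RAW264.7 is an established macrophage-like cell line, labelled as derived from an ascitic tumor that Abelson murine leukemia virus induced in an adult male BALB/c mouse. A culture given vehicle and a culture given IR-61 (10 μM), each kept for 24 h, were compared, with 1 Agilent single-colour array per condition. IR-61 is a near-infrared heptamethine cyanine dye that accumulates in mitochondria. The comparison describes how gene expression in this line differed between the culture given the dye and the culture given vehicle. Since each condition was a single culture, the spread between cultures is unknown, and the differences are given without tests or p-values.

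LXRs are nuclear receptors that bind oxysterols and other sterol intermediates. They sit on DNA as heterodimers with retinoid X receptors (RXRs), most often at 2 direct repeats of a hexamer spaced by 4 bases, called a DR4 element. When cholesterol builds up in a macrophage, the liganded receptors raise the genes that move cholesterol out of the cell and remodel its lipids. The same receptors are known to restrain inflammatory genes in macrophages.

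The *Abca1* promoter holds the best known element of this kind, and *Lpcat3* and *Abca1* were the genes with the largest differences, so their promoters are shown. The sequences are the 250 bases before a RefSeq gene start on GRCm38.p6, given 5′ to 3′ on the strand of the gene. The array design is annotated on another build, and these coordinates place the promoters only. *Abca1* lies on the minus strand, chr4:53159896-53160145, and *Lpcat3* on the plus strand, chr6:124662854-124663103. Capitals mark a match to relaxed DR4 letters, which were 2 copies of NGGTNA spaced by 4 bases of any kind, on either strand.
Abca1: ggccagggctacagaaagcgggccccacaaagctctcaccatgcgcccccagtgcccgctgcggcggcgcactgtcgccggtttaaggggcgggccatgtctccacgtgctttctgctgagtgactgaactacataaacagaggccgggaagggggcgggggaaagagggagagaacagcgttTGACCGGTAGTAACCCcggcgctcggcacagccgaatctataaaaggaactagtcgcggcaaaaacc
Lpcat3: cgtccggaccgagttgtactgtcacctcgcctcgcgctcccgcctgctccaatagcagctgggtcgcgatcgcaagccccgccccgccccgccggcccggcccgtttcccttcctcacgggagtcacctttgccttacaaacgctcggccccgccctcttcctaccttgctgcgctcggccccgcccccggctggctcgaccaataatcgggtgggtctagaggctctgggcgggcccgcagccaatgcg
The *Abca1* match ran from 67 to 52 bases before the start and reads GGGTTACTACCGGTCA on the opposite strand. The relaxed letters were chosen to admit this known element, so the match in *Abca1* is a description. Of all 32851 promoter windows of the same length, 0.621% held a match to the relaxed letters. The full consensus, 2 copies of AGGTCA with the same spacing, was found in 0.0152% of the windows and in none of the 11 windows of the 8 genes with one. A single AGGTCA, which the full consensus contains, was found in 14% of all windows. Among the 8 genes with a window, it was found in that of *Apoc2* alone, the gene without a value on the arrays. *Abcg1* had no window in the table. LXR elements also lie far from gene starts, where these windows do not reach.

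The IR-61 array was brighter as a whole. The 75th percentile of its log2 signal was 10.79, against 10.30 for vehicle, and this offset of 0.49 was removed from every difference below. A log2 difference is IR-61 minus vehicle after this scaling, so that −1 is a 2-fold lower signal. Over the 16888 genes well above background on both arrays, the median log2 difference was 0.10 and the middle 95% lay between −0.81 and 0.93. The error given with a difference is an expected SD, taken from how far repeated spots of a probe scattered within an array, over probes printed 10 times. It covers the array only and not the cultures. The scanner software gave its own error, between 10.0% and 11.1% of the signal for the probes of the 8 genes. The expected SD does not use this error. Of 7 macrophage marker genes with a probe, 7 were well above background on both arrays, while *Cd68* had no named probe. Of 11 markers of other cell types, 8 were also above background on each array, where 77.6% of all probes with vehicle and 81.2% with IR-61 were. The lowest signals counted as well above background were 11.4 with vehicle and 14.5 with IR-61. Among the 8, *Alb* had signals of only 18.2 and 32.5. The fibroblast collagen *Col1a1* was the brightest of these markers, with a signal before scaling of 27148 with vehicle and 58670 with IR-61. Its scaled log2 difference was 0.62. The summed signal before scaling of these 11 markers was 30037 and 62972, and that of the 7 macrophage markers 194700 and 371680. After scaling, the median log2 difference was 0.15 over the 8 markers of other cell types, with a range from −0.09 to 0.62. Over the macrophage markers the median was 0.06, but single markers ranged from −0.83 to 1.03. The part of these markers in the results was not tested.

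Among the 8 genes, *Lpcat3* was the only one past 2-fold, and it was lower with IR-61. *Abca1* was the next lowest, and the other 6 genes lay between a log2 difference of −0.18 and 0.35. Thus 1 of 8 genes was lower by 2-fold or more and 0 were higher, where 1.39% of all measured genes were lower and 1.99% higher by that limit. In counts these were 235 lower and 336 higher genes, and with scaling by the array median 295 lower and 249 higher. The 8 log2 differences had a median of −0.09, and 6 of the 8 lay below the median of all measured genes. Their signs were split evenly, with 4 negative and 4 positive, where 38.8% of all measured genes were negative and 61.2% positive. By a 1.5-fold limit *Lpcat3* and *Abca1* were lower and 0 genes higher, against 5.68% lower and 9.79% higher among all measured genes. By a 3-fold limit none of the 8 passed, against 0.379% lower and 0.296% higher.

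**Figure D1:**
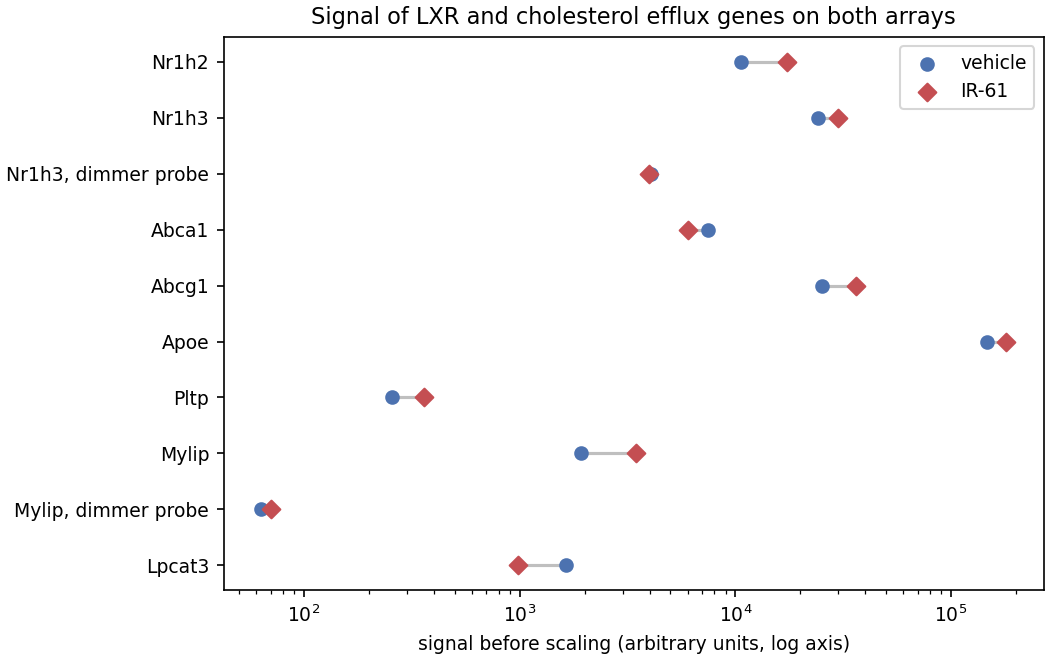
Signal of each probe of the LXR and cholesterol efflux genes before scaling, in arbitrary units on a log axis, with vehicle as circles and IR-61 as diamonds (1 array each). Most probes were brighter on the brighter IR-61 array, while *Lpcat3*, with 1631 and 983, *Abca1*, with 7455 and 6052, and the dimmer *Nr1h3* probe, with 4078 and 3985, were dimmer there.

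Of the receptors, *Nr1h2* was slightly higher after scaling, and *Nr1h3* was lower by a size that depended on the probe. *Nr1h2*, which encodes the broadly expressed LXRβ, had a signal of 10585 with vehicle and 17409 with IR-61. After scaling its log2 signal was 3.07 and 3.30, a difference of 0.23 with an expected SD of 0.094. *Nr1h3* encodes LXRα, which is prominent in macrophages, liver and fat, and it was read by 2 probes. The brighter probe of *Nr1h3* had signals of 24255 and 29997, and a log2 difference of −0.18 with an expected SD of 0.094. The dimmer probe had signals of 4078 and 3985, and a log2 difference of −0.52 with the same expected SD. Both *Nr1h3* probes were thus lower after scaling, but by sizes that differed by 0.34 on the log2 scale against an expected SD of 0.134 for that gap. With the mean over both probes *Nr1h3* had a log2 difference of −0.35. Without scaling the brighter probe was higher by 0.31, while the dimmer probe stayed lower, at −0.03.

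The pair of efflux transporters did not move alike. *Abca1* encodes the transporter that loads cholesterol and phospholipid onto lipid-poor apolipoprotein A-I. Its single probe had a signal of 7455 with vehicle and 6052 with IR-61, or a scaled log2 signal of 2.56 and 1.77. The log2 difference of *Abca1* was −0.79, equal to a 1.73-fold lower signal, with an expected SD of 0.094. It stood at rank 448 from the largest fall, with 2.65% of the measured genes below it. Its signal was lower with IR-61 also without scaling, by a log2 difference of −0.30. *Abcg1* encodes the transporter that passes sterols on to mature high-density lipoprotein. Its probe had signals of 25338 and 36177, and the scaled log2 signal of 4.33 and 4.35 left a difference of 0.03, within the expected SD of 0.094. The sign of *Abcg1* turned under some settings, with a range from −0.06 to 0.08 over 9 alternatives.

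*Apoe* encodes the apolipoprotein E that macrophages secrete and that accepts cholesterol outside the cell. It was printed in 10 spots on each array. With vehicle these spots ran from 128320 through a median of 146130 to 166360, and with IR-61 from 162900 through 179830 to 202210. After scaling, the mean ± SD between spots was 6.86 ± 0.13 with vehicle and 6.67 ± 0.12 with IR-61. The spots of the arrays overlapped, with 5 of the 10 IR-61 spots below every vehicle spot. Compared at the same position on both arrays, all 10 spots were lower with IR-61 after scaling, by log2 differences from −0.26 to −0.14. The log2 difference of *Apoe* was −0.18, with an expected SD of 0.055 for the difference between means over 10 spots. The differences at the 10 single positions scattered with an SD of 0.036, which is not the error of their mean. No spot was saturated. These spots share 1 culture per condition, and the sign rests on the offset removed between the arrays. Under quantile normalization and with the deposited log2 values it was −0.03, the value nearest to 0 among the settings with scaling, and without scaling it was 0.30.

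*Pltp* encodes the phospholipid transfer protein, which moves phospholipids between lipoproteins. Its probe was dimmer, with signals of 255 and 359, and its scaled log2 signal was −2.31 with vehicle and −2.30 with IR-61. The log2 difference was 0.003 with an expected SD of 0.229, so that the measured signals of *Pltp* were indistinguishable at this precision.

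*Mylip* encodes IDOL, a ubiquitin ligase that marks lipoprotein receptors for degradation. The brighter of its 2 probes had signals of 1927 and 3451, and with a log2 difference of 0.35 and an expected SD of 0.094 it was the highest value among the genes. The dimmer probe had signals of 63.1 and 70.1, and a log2 difference of −0.34 with an expected SD of 0.395. The probes thus pointed in opposite directions, with the dimmer one inside its own error. With the mean over both probes *Mylip* had a log2 difference of 0.008.

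*Lpcat3* encodes a lysophospholipid acyltransferase that builds polyunsaturated chains into membrane phospholipids, a step through which LXRs change membrane fluidity. Its single probe had a signal of 1631 with vehicle and 983 with IR-61, or a scaled log2 signal of 0.37 and −0.85. The log2 difference of *Lpcat3* was −1.22, equal to a 2.33-fold lower signal, with an expected SD of 0.160. It stood at rank 142 from the largest fall, with 0.835% of the measured genes below it. Its values lay between −1.30 and −1.19 over 9 alternatives. Without scaling the log2 difference was −0.73, still lower with IR-61 but short of 2-fold. *Lpcat3* and *Abca1* were each read by 1 probe in 1 spot.

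**Figure D2:**
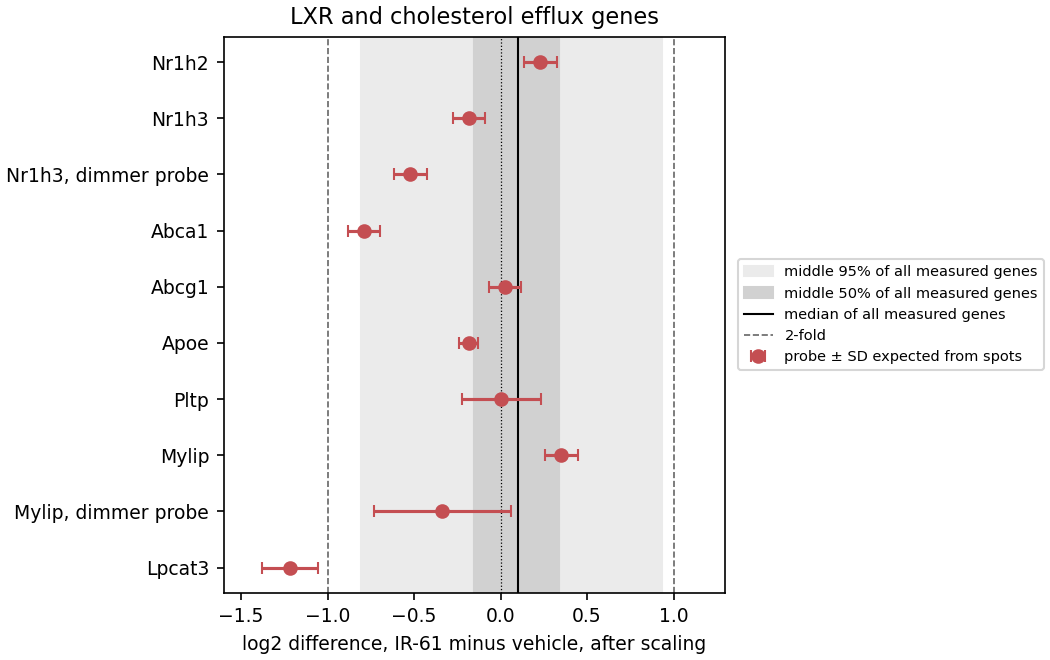
Log2 difference of each probe, IR-61 minus vehicle after scaling, with bars for the expected SD of the array measurement (1 array per condition). The shaded bands hold the middle 95% and 50% of all measured genes, the solid line is their median of 0.10 and dashed lines mark 2-fold. *Lpcat3*, at −1.22, lies outside the wider band.

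Other genes that LXRs are known to raise did not share one direction. In a list of 20 such genes 17 were measured on both arrays, with a median log2 difference of 0.17, 7 negative and 10 positive values. In this list 1 gene was lower by 2-fold or more and 1 was higher. The lower gene was *Scd1*, a stearoyl-CoA desaturase, with signals of 249 and 136 and a log2 difference of −1.37. Its paralog *Scd2* had signals of 3880 and 3035 and a log2 difference of −0.84. Toward the high end, *Cd5l*, a secreted macrophage survival protein, had signals of 3871 and 8928 and a log2 difference of 0.72. Neighbors of *Apoe* and *Apoc2* in the same apolipoprotein cluster were also in the list and are named for that position, after their values were seen. *Apoc1* had signals of 287 and 495 and a log2 difference of 0.30. *Apoc4* had signals of 14.3 and 27.5 and was above background with IR-61 only, and its log2 difference of 0.46 lay within the expected SD of 0.499.

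The RXR partners and the coregulators that work with LXRs were mostly higher. Of 17 genes, all measured on both arrays, 15 were positive and 0 passed 2-fold, with a median of 0.30. The highest was *Ncoa3*, a coactivator, at 0.85, followed by *Tbl1xr1*, a subunit of the NCoR corepressor complex, at 0.74. The lowest were the acetyltransferase *Crebbp*, at −0.54, and the Mediator subunit *Med1*, at −0.13. A dimmer probe of *Ncoa3* was at −0.55 and one of *Tbl1xr1* at −0.71, opposite to their brighter probes. With the mean over detected probes the values were 0.15 for *Ncoa3* and 0.02 for *Tbl1xr1*, and the median of the list was 0.13.

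Genes that make or remove sterol ligands of LXRs showed small differences. Of 8 genes 7 were measured, with a median of −0.12 and 0 past 2-fold. The highest was *Cyp46a1*, a cholesterol 24-hydroxylase, at 0.25. Genes of cholesterol storage and transport, 15 measured of 17, had a median of −0.02, with 8 negative, 7 positive and 0 past 2-fold. At the low end were *Soat2*, which esterifies cholesterol, at −0.86, and *Cav1*, the caveolae scaffold protein, at −0.80. *Soat2* had signals of 1097 and 846. The related *Soat1*, named after its value was seen, had brighter signals of 2350 and 2699 and was at −0.29. At the high end were *Nceh1*, which hydrolyzes stored cholesterol esters in macrophages, at 0.56, and *Abcg4*, a sterol transporter related to *Abcg1*, at 0.28. *Abcg4* was dim, with signals of 134 and 228, and its value was little above the expected SD of 0.229. The other *Abcg4* probe was not above background on either array.

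The receptors that IDOL degrades were all measured, and they differed among themselves. *Vldlr*, the very-low-density lipoprotein receptor, had signals of 189 and 545 and a log2 difference of 1.04. The other *Vldlr* probe, with signals of 3.8 and 8.5, was not above background on either array. *Lrp8*, the apolipoprotein E receptor 2, had signals of 40.3 and 59.0 and a log2 difference of 0.06, with an expected SD of 0.499. *Vldlr* was therefore the only one of these 3 past 2-fold, by a margin of less than its expected SD of 0.229, and by scaling with the median it was at 0.96.

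Sterol synthesis, the arm that works against efflux in cholesterol balance and is driven by SREBP2, lay lower. All 21 genes were measured, with a median log2 difference of −0.26, and 18 of them lay below the median of all measured genes. *Lss*, which closes the sterol rings, was the only one past 2-fold, with signals of 247 and 152 and a log2 difference of −1.19. *Hsd17b7*, a sterol ketoreductase, was next, at −0.89, and its second probe was at −1.25. The highest were *Tm7sf2*, a sterol reductase, at 0.32 and *Idi1*, the isopentenyl diphosphate isomerase, at 0.28, and the dimmer probe of *Tm7sf2* was at −0.24.

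**Figure D3:**
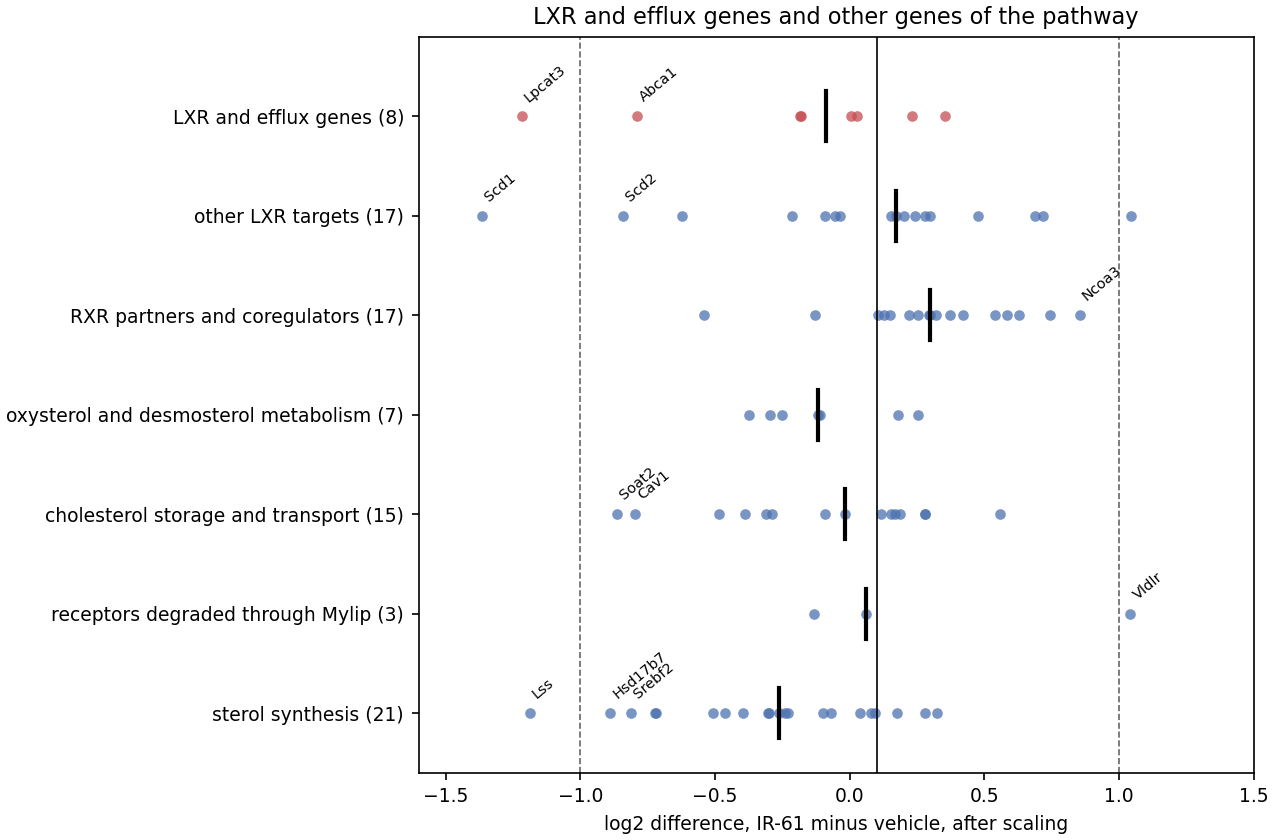
Log2 difference, IR-61 minus vehicle after scaling, of each gene measured on both arrays (points, number of genes in parentheses), with the median of each list as a short bar. The long solid line is the median of all measured genes and dashed lines mark 2-fold. The LXR and efflux genes spread from −1.22 to 0.35, and *Scd1*, *Lss* and *Vldlr* are among the other genes past 2-fold.

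The values of the 8 genes were set against 9 alternatives, which leave out no scaling and the normexp run that could not be fitted well. Of these, 4 shift all genes alike or leave their values as they are, so they bear on the levels and not on the order. Under the other 5 (quantile, loess, the deposited values, normexp with spots replaced and the mean over probes) *Lpcat3* and *Abca1* were the lowest of the 8 genes, and under all 9 they were not above −0.76. *Nr1h2* stayed positive, between 0.15 and 0.24, and *Mylip* between 0.27 and 0.35 except for the mean over both probes. *Nr1h3* and *Apoe* stayed negative, while *Abcg1* and *Pltp* changed sign within 0.13 of 0.

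**Figure D4:**
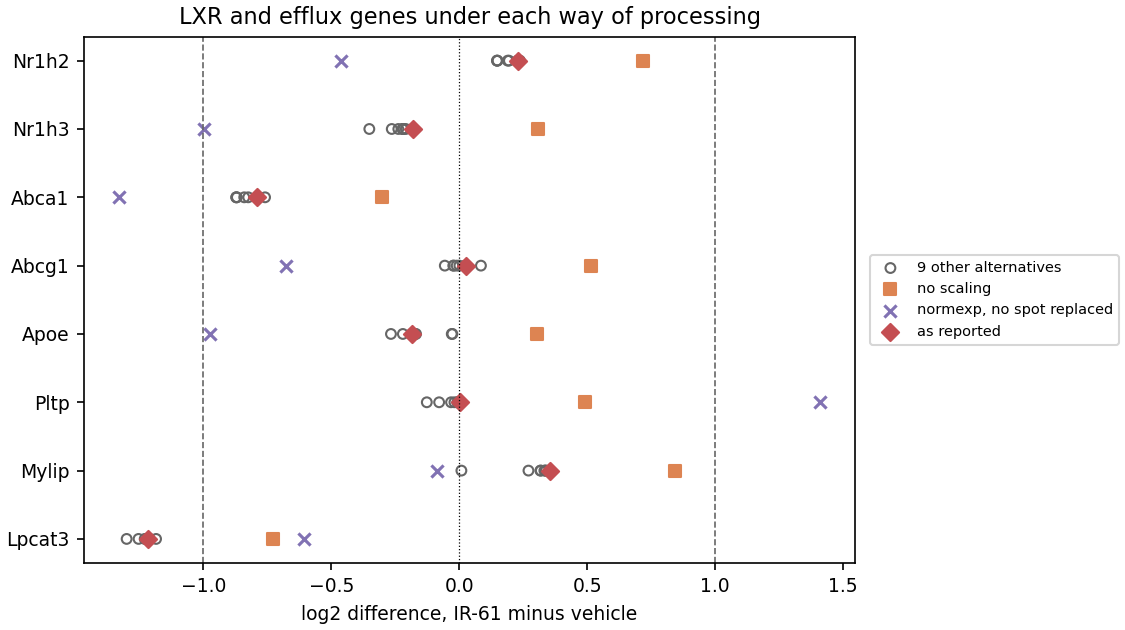
Log2 difference of each gene, IR-61 minus vehicle, as reported (diamonds), under 9 other alternatives (open circles), without scaling (squares) and with normexp background correction before any spot was replaced (crosses). Dashed lines mark 2-fold. *Lpcat3* and *Abca1* stay at the low end in the open circles, and without scaling the genes shift upward together.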

How the data were processed

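RNA of RAW264.7 cells treated with vehicle or IR-61 for 24 h was hybridized by the authors to single-colour Agilent arrays, 1 per condition. The deposited intensity of each spot is background-subtracted and detrended within the array and is not scaled between arrays. The file headers give Feature Extraction 11.0.1.1, the labels 11.0.0.1, and the methods an earlier version. A table of log2 values was deposited beside the scanner files, and the sources used here do not state its making. Its columns share their quartiles, and they follow the log2 intensities with a Pearson r across probes of 0.9995 and 0.9988.

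Control spots and outlier spots, 124 with vehicle and 139 with IR-61, were left out, which kept 39419 probes. Log2 intensities were averaged over the spots of a probe and scaled by the 75th percentile of each array. Names were given through unversioned RefSeq accessions (table of GRCm38.p6, used for names and promoters). Each gene was read by its brightest unsaturated probe and counted as measured where at least 50% of its spots were well above background on each array, 77.6% of probes with vehicle and 81.2% with IR-61. Genes named beside the LXR and efflux genes are the extremes of each list and those past 2-fold. Exceptions are cell type markers, receptors degraded through *Mylip* and genes said to be named after their values were seen. Some genes that this rule picks are not reported here. All genes and lists were chosen with earlier results of these data known. The number of arrays limits the precision. The steps were tested on simulated data. Alternatives were other scalings, the deposited values, normexp (offset 50), the mean over probes, outlier spots kept, no filter on dim probes, other fold limits and probes in place of genes. Tools were R 4.3.3 (limma 3.58.1) and Python 3.11.15 (matplotlib 3.10.9, pandas 2.3.3, numpy 2.4.6, statsmodels 0.14.6).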

Additional observations from a re-analysis of the deposited data

How the results depend on the processing

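No paired analysis was possible because a single array stands for each condition and the result comes from no test. Normexp as planned gave a background mean of −1571 on the IR-61 array, where 4 spots had a background above their signal. It was run again with these spots at the median background, a setting chosen after seeing the data, which gave 12.7. Of 88 values of the 8 genes 67 moved by no more than the SD expected from spots. This count includes settings that could not change a value. Dropping the filter on dim probes left all 8 genes as they were, and keeping outlier spots hardly shifted them. The mean over probes could not change genes with 1 probe. With that mean *Mylip* moved to 0.008 and *Nr1h3* to −0.35.

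Without scaling the median of all measured genes was 0.59. The list medians were then 0.40 for the LXR and efflux genes, 0.66 for other LXR targets, 0.78 for RXR partners and coregulators, 0.37 for oxysterol and desmosterol metabolism, 0.47 for storage and transport, 0.55 for the receptors degraded through *Mylip* and 0.23 for sterol synthesis. None of the 8 genes was lower by 2-fold (0), and 72 of all genes were lower and 2156 higher, against 235 and 336. With normexp as planned the medians were −0.64 for the LXR and efflux genes, −0.092 for coregulators, 1.39 for oxysterol and desmosterol metabolism, −0.49 for storage and transport, 1.99 for the receptors and −0.45 for sterol synthesis. In that run *Scd1*, *Lss*, *Cav1* and *Hsd17b7* turned to 1.53, 1.28, 1.90 and 1.38, *Nr1h2*, *Abcg1* and *Mylip* to −0.46, −0.68 and −0.09, and *Nceh1*, *Idi1* and *Tm7sf2* to −0.19, −0.45 and −0.28, *Pltp* was the 1 gene of the 8 higher by 2-fold, *Lpcat3* fell short at −0.61, *Abca1* was at −1.33, and 463 of all genes were lower and 7830 higher. With the spots replaced, other LXR targets had a median of −0.027 and 149 genes were lower and 124 higher. Their median was 0.08 with quantile normalization (0.075) and with the deposited values (0.077). With the mean over probes the medians were 0.13 for coregulators and −0.13 for storage and transport. After median scaling 295 were lower and 249 higher, and the other scalings gave 259 to 281 lower and 252 to 291 higher.

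Without a filter on dim probes 440 genes were lower and 921 higher, and over probes 451 and 612. With a 1.5-fold limit 2 of the 8 genes were lower, *Lpcat3* and *Abca1*, and of all genes 960 were lower and 1653 higher. With a 3-fold limit 0 of the 8 were lower, and of all genes 64 were lower and 50 higher.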
